A study of Homo sapiens with 35 samples.

Results

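The genes described here are 32 genes of cholesterol and fatty acid synthesis, of their control by sterol-sensing transcription factors, and of sterol transport, measured in human pluripotent stem cells during the first 48 h of mesendoderm induction. They were chosen by name, and all 32 were found among the 58581 genes of the count table. By role they fall into 5 sets, with 6 genes from mevalonate to farnesyl diphosphate, 11 from squalene to cholesterol, 4 of sterol-regulatory element-binding protein (SREBP) control, 5 of sterol transport and acetoacetyl-CoA supply and 6 of fatty acid synthesis. The cells were H9, an established human embryonic stem cell line kept in E8 medium on Matrigel and passaged with EDTA. They were seeded as single cells in E8, in E6, or in E6 with 40 ng/mL of BMP4 and Activin A (called BA, the mesendoderm condition). Polyadenylated RNA was sequenced every 6 h up to 48 h. The stem cells at the start are labelled t0. The t0 cells, the E8 and E6 cells at 48 h, and the BA cells at both 24 and 48 h each had 3 libraries, and the other 20 combinations of medium and hour had 1 library each. All groups are from the H9 line, so no other line was compared.

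Cells make cholesterol from acetyl-CoA through mevalonate, the isoprenoid diphosphates, squalene and lanosterol, and they make fatty acids from the same acetyl-CoA through malonyl-CoA. When sterols in the endoplasmic reticulum fall, SCAP escorts the SREBP precursors to the Golgi, where they are cut to release transcription factors that raise the genes of both routes. INSIG proteins hold SCAP back when sterols are plentiful, and oxysterols act through the LXR receptors to raise the efflux pumps ABCA1 and ABCG1.

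The 35 libraries held between 11793453 and 37191969 counts. The 25 libraries that are replicate 1 or the only library of their group held 11793453 to 22115047 counts with 1.35 to 2.51% of them mitochondrial. The 10 libraries of replicates 2 and 3 held 26097462 to 37191969 counts with 2.38 to 5.51% mitochondrial. The 32 genes took 1.12 to 1.89% of the counts in the former and 0.948 to 1.42% in the latter. The labels do not call these sets batches and do not say that replicates were separate cultures, so p-values measure only the spread between these samples. Because replicate 1 stood apart from replicates 2 and 3 in every group, each comparison of replicated groups is given without and with the replicate number as a block. The E6 library at 18 h stood apart from its neighbouring hours, with a mean correlation of 0.97 against 0.98 to 0.992 for the others. Levels are CPM, the read counts scaled to library size, and in bulk RNA fewer cells of a type and less RNA per cell cannot be told apart.

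Promoter sequence was compared because many of these genes are known SREBP targets. Of the 32 genes, 27 were found in a RefSeq table of promoters (GRCh38.p14), with 35 starts in all, each searched on both strands over the 250 bases before it. The sterol regulatory element was written as TCACNCCAC, and it was found at any start in 1 of the 27, SREBF2, against 1.09% of the 27305 genes of the table. The NF-Y box CCAAT was found in 18 of the 27 genes against 37% of all genes, and the E-box CACGTG in 4 of the 27 (SC5D, INSIG1, SCAP and ABCA1) against 7.73%. Counted by start, 1, 21 and 5 of the 35 held the 3 motifs, against 0.883, 32 and 6.34% of the 35116 starts of the table. These letter matches are descriptions and not sites, and none of the 3 motifs contains another. The windows of 6 genes are shown: SREBF2 for the sterol element, 133 bases before its start, and ABCA1 for its course over time. INSIG1, MSMO1 and STARD4 are shown for their rises at 48 h below, and NSDHL because it passed the test at 48 h with and without the block. Each is printed 5′ to 3′ on the gene's strand, cut where the GENCODE 29 gene model begins, with matches in capitals: the sterol element, CCAAT or its reverse complement ATTGG, or CACGTG.
SREBF2 (chr22:41832855-41833078, + strand): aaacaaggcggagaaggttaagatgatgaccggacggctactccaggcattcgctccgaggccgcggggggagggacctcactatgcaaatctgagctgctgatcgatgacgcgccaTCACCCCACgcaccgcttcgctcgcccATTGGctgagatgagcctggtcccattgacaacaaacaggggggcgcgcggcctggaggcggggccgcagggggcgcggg
INSIG1 (chr7:155297628-155297775, + strand): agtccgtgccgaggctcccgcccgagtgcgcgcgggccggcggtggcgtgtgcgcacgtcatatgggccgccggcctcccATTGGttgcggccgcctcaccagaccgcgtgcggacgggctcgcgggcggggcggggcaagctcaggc
MSMO1 (chr4:165327419-165327622, + strand): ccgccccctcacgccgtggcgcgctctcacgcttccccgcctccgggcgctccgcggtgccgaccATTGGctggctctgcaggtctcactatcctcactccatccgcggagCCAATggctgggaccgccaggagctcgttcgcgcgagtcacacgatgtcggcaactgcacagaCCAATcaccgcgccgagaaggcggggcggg
STARD4 (chr5:111512591-111512785, - strand): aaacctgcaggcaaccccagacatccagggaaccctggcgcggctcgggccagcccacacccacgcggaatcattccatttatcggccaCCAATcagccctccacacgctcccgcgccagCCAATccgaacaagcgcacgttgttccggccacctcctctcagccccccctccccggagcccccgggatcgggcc
NSDHL (chrX:152830813-152830966, + strand): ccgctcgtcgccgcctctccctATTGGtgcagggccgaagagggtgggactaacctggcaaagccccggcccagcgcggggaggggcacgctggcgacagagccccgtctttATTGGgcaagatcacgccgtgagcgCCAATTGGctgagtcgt
ABCA1 (chr9:104928238-104928405, - strand): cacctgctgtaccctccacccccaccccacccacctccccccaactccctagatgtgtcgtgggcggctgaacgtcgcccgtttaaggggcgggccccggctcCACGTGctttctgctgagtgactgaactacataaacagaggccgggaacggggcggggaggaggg
MSMO1 held 3 boxes of the CCAAT type in the stretch shown, STARD4 held 2, INSIG1 held 1 and NSDHL held 4, of which the last pair shares bases, whereas the ABCA1 stretch held an E-box and no CCAAT.

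All 32 genes passed the filter on low counts in each test. The level of the genes per kilobase of exon, from the median CPM over the 35 libraries, spanned from SCD, the desaturase that makes oleate and palmitoleate, at 552 CPM per kb to ABCG1 at 1.05 CPM per kb. FASN, the fatty acid synthase, followed at 304, HMGCS1, which condenses acetoacetyl-CoA and acetyl-CoA to the precursor of mevalonate, at 229, FDFT1, the squalene synthase, at 124, and FADS2, the delta-6 desaturase, at 105 CPM per kb. At the low end stood CYP51A1, the lanosterol demethylase, at 4.51, HSD17B7, a keto-reductase of the late sterol pathway, at 5.52, MVK, the mevalonate kinase, at 5.67 and ABCA1 at 6.26 CPM per kb. Some of these levels are uncertain because genes share exon bases or have near-identical copies: 83.2% of the exon bases of CYP51A1 and 52.3% of those of ACAT2 overlap other genes, and FDPS has 8 named pseudogenes. The counting's strand was not given in the sources used here, so reads from overlapping genes on the opposite strand cannot be told apart.

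The largest changes over time in the BA medium were those of the pumps ABCA1 and ABCG1. ABCA1 (chr9:104781002-104928237, - strand), which exports cholesterol from cells, stood at 135, 223, 251 and 183 CPM at 6, 12, 18 and 24 h of BA, then at 132, 78.4, 20.8 and 53.1 CPM at 30, 36, 42 and 48 h, in the replicate 1 or single libraries. In E8 it ranged over 8 hours from 39.8 to 78.8 CPM with a median of 55.7. In E6 it ranged from 27.3 to 93.2 CPM with a median of 72, and the 3 t0 libraries held 49.1, 66.3 and 59.4 CPM. The first 5 sampled hours in BA therefore lay above every E8 and E6 library, and the 42 h library lay below every one of them. The edgeR fit over 24 libraries and 16971 genes gave an average difference BA minus E8 of 1.0 on the log2 scale (SE 0.30, adjusted p = 0.014, higher at 7 of 8 hours). The call was lost without the 24 h libraries (adjusted p = 0.0579) or the 48 h libraries (adjusted p = 0.0547). Against E6 the average difference was 0.75 (SE 0.30, adjusted p = 0.0627), which did not pass, and it passed with replicates 2 and 3 in the fit and a term for library set (0.72, adjusted p = 0.0203). Within BA, ABCA1 fell by 1.49 per 24 h on the log2 scale (SE 0.36, edgeR adjusted p = 0.00407). The slope in BA minus that in E6 was -1.84 per 24 h (SE 0.53, edgeR adjusted p = 0.0377), with ABCA1 and ABCG1 the 2 genes of the 32 called against 10.2% of all genes. That call was lost without the 12, 30, 36, 42 or 48 h libraries (adjusted p from 0.0608 to 0.175).

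Replicates 2 and 3 held 113 and 125 CPM of ABCA1 at 24 h of BA, and 63.9 and 75.6 CPM at 48 h. At 24 h the 3 BA libraries lay above the 3 t0 libraries, and the edgeR group fit over 15 libraries and 21554 genes gave a log2 difference of 1.27 (SE 0.23, adjusted p = 0.0167) without the block and 1.29 (SE 0.20, adjusted p = 0.00218) with it. ABCA1 was the only member of the 32 called in that comparison without the block, against 1.57% of all genes, and with the block 4 were higher and 1 lower, against 8.95%. The ABCA1 call without the block was lost when t0 replicate 1, 2 or 3 or BA replicate 1 at 24 h was left out (adjusted p between 0.0512 and 0.0829), and in a fit of those 2 groups alone (adjusted p = 0.0867). The rise was larger in replicate 1 (1.89) than in replicates 2 and 3 (0.94), and the interaction with library set passed the edgeR test (adjusted p = 0.0222). In E6 at 48 h the libraries held 92.3, 102 and 118 CPM, above all 3 t0 libraries and above E8 at 48 h (51.3, 65.9 and 71.1 CPM). The difference from t0 of 0.86 had adjusted p = 0.0554 without the block and 0.00649 with it, in edgeR.

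ABCG1 (chr21:42199689-42297244, + strand), which also exports cholesterol, was lower in BA than in both control media at each hour. The t0 libraries held 2.72, 11.8 and 8.87 CPM, with replicate 1 the lowest and close to the first BA library. In BA it held 2.66, 1.71, 2, 1.44, 0.641, 0.372, 0.186 and 0.983 CPM from 6 to 48 h, in the replicate 1 or single libraries. E8 ranged from 4.97 to 9.21 CPM (median 6.71) and E6 from 5.28 to 10.7 CPM (median 6.22), so the BA libraries lay below every control library at 8 of 8 hours, and every control library lay above t0 replicate 1. The average difference was -2.64 against E6 (SE 0.21, edgeR adjusted p = 4.01e-08) and -2.70 against E8 (SE 0.21, edgeR adjusted p = 3.22e-08). It passed with any 1 of the 8 hours left out. In BA it fell by 1.41 per 24 h (SE 0.31, edgeR adjusted p = 0.00156). The slope differed from that in E8 by -1.83 (SE 0.36, edgeR adjusted p = 0.00315), the only such call of the 32 against 10.6% of all genes, and from that in E6 by -1.38 (SE 0.36, edgeR adjusted p = 0.0216). The second was lost without 6, 12, 36 or 42 h (adjusted p from 0.0612 to 0.189). Both slope calls were lost when replicates 2 and 3 joined the fit with a term for library set (-0.50, adjusted p = 0.599, and -0.28, adjusted p = 0.736), whereas the average differences passed there (-2.10 and -2.13). Replicates 2 and 3 held higher levels of ABCG1 throughout: 9.71 and 9.13 CPM in BA at 48 h against 28.3 and 29.9 in E6 and 25 and 21.9 in E8. There the log2 difference BA minus E6 was -1.64 and BA minus E8 was -1.32, and with the replicate block over all 3 replicates it was -1.79 (SE 0.29, edgeR adjusted p = 0.00146) and -1.78 (SE 0.29, edgeR adjusted p = 0.00206). Without the block neither passed (adjusted p = 0.446 and 0.593), and ABCG1 stood 4.63-fold lower in replicate 1 than in replicates 2 and 3, the median over 5 groups. From t0 to 48 h of BA the replicate 1 difference was -1.12, against -0.09 for replicates 2 and 3 (interaction adjusted p = 0.0232 in edgeR), and the difference from E8 at 48 h was -2.71 in replicate 1 (interaction adjusted p = 0.00361).

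**Figure D1:**
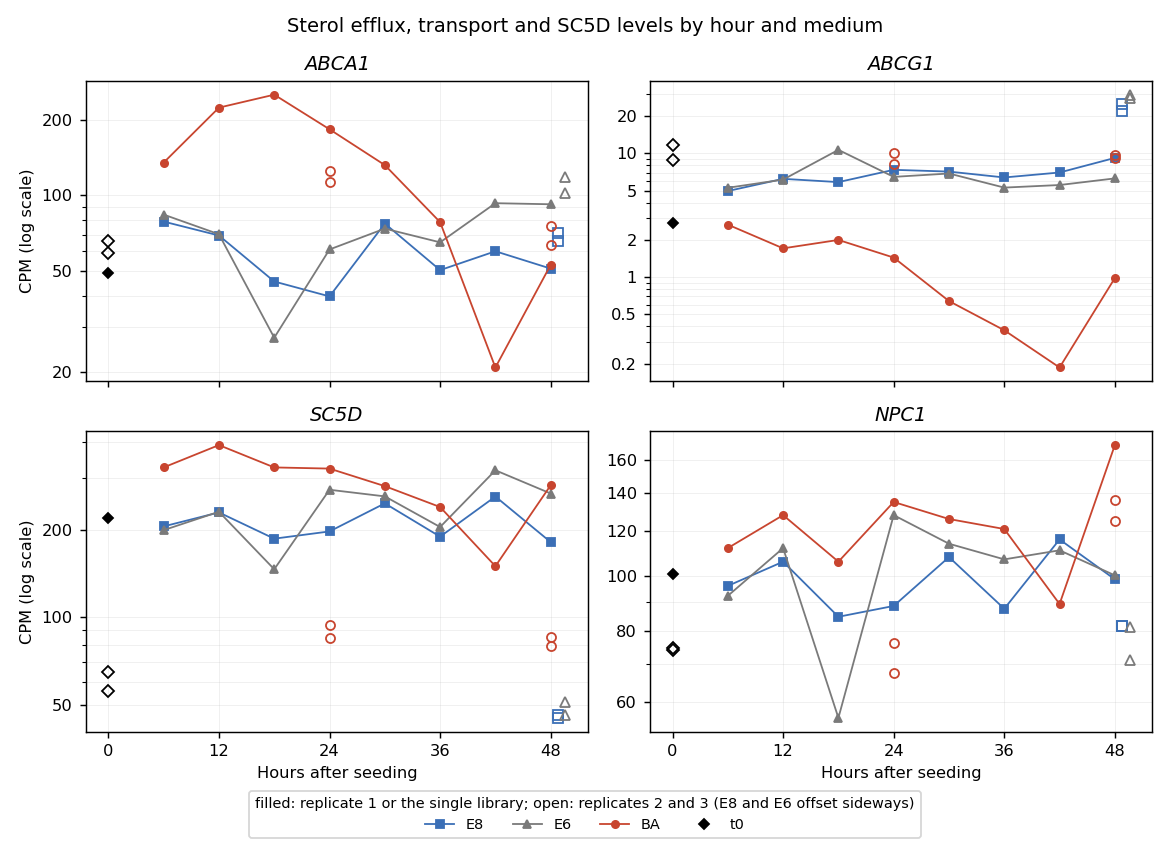
CPM on a log scale (vertical) against hours after seeding (horizontal) for ABCA1, ABCG1, SC5D and NPC1, with filled symbols for replicate 1 or the single library and open symbols for replicates 2 and 3. ABCA1 in BA peaked at 251 CPM at 18 h and was 20.8 CPM at 42 h. ABCG1 in BA stayed at or under 2.66 CPM among the filled symbols. Its open symbols in BA were 10.1 and 8.29 CPM at 24 h and 9.71 and 9.13 CPM at 48 h. SC5D in replicates 2 and 3 lay far below its level in replicate 1.

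Against the control media over 6 to 48 h, 6 of the 32 genes were lower in BA than in E6 and 0 were higher, where 16.6% of all tested genes were lower and 17.9% higher (34.5% in all). Against E8, 3 were higher and 4 lower, where 17.4% of all tested genes were higher and 16.7% lower (34.1% in all). The median of the 32 was -0.12 against E6 and -0.01 against E8 on the log2 scale, where the median of all tested genes was -0.01 in both. The share of the 32 called was below that of all genes in both comparisons. With replicates 2 and 3 in the fit and a term for library set (32 libraries), the balance differed: against E6, 4 were higher (ABCA1, FADS1, SC5D and NPC1) and 5 lower (PMVK, SCAP, SQLE, SREBF1 and ABCG1), where 17.2% of all genes were higher and 16.6% lower (33.9% in all). Against E8 the same 4 were higher and ABCG1 alone was lower, where 17% were higher and 16.3% lower (33.2% in all). FADS1 passed there at 0.22 over E6 and 0.27 over E8 (edgeR adjusted p = 0.0497 and 0.0171). The 3 genes SQLE, SREBF1 and ELOVL6 of the routes themselves were lower in BA by the edgeR fit against both media. SQLE is the squalene epoxidase, SREBF1 encodes the SREBP1 precursors that drive fatty acid synthesis, and ELOVL6 elongates saturated and monounsaturated fatty acids.

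In the replicate 1 or single libraries, from which the levels in this paragraph come, SQLE held between 305 and 456 CPM over the 8 hours in BA (median 361). In E8 it held 369 to 508 CPM (median 441) and in E6 327 to 541 CPM (median 466), so BA was below E6 at 8 of 8 hours. The difference was -0.30 against E6 (SE 0.09, edgeR adjusted p = 0.0129) and -0.28 against E8 (SE 0.09, edgeR adjusted p = 0.0213). The call against E6 was lost without 30 h (adjusted p = 0.0507), and that against E8 without 30 h (0.0704) or 42 h (0.0828). SREBF1 held 105 to 210.1 CPM in BA with a median of 166, against medians of 195 in E8 and 198 in E6. Its differences were -0.37 (SE 0.09, edgeR adjusted p = 0.00512) and -0.30 (SE 0.09, edgeR adjusted p = 0.0191) against E6 and E8. The second was lost without 12 h (adjusted p = 0.0635) or 42 h (0.0774). ELOVL6 held 240.5 to 272 CPM in BA, 269.7 to 350.3 CPM in E8 and 241 to 359.6 CPM in E6. Its differences were -0.25 (SE 0.06, edgeR adjusted p = 0.00578) and -0.32 (SE 0.06, edgeR adjusted p = 0.000758), and both passed with any 1 of the 8 hours left out. Without the E6 library at 18 h the differences of SREBF1, SQLE and ELOVL6 from E6 passed as well (adjusted p = 0.00466, 0.00422 and 0.000219). With replicates 2 and 3 in the fit and a term for library set, the calls of ELOVL6 were lost against E6 (-0.14, adjusted p = 0.247) and E8 (-0.22, adjusted p = 0.065), as were those of SREBF1 (-0.14, adjusted p = 0.355) and SQLE (-0.21, adjusted p = 0.073) against E8.

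FDFT1 and PMVK, the phosphomevalonate kinase, were lower in BA than in E6 (differences of -0.26, SE 0.08, edgeR adjusted p = 0.0149, and -0.39, SE 0.14, edgeR adjusted p = 0.0407). The levels in this paragraph are those of the replicate 1 or single libraries. FDFT1 held 706 CPM in BA at 12 h and 397 CPM at 42 h, and its call was lost without 30 h (adjusted p = 0.0525) and with replicates 2 and 3 in the fit (adjusted p = 0.0578). For PMVK the call was lost without the 6, 12, 18, 36, 42 or 48 h libraries (adjusted p from 0.0565 to 0.14), and it was lost without the E6 library at 18 h (adjusted p = 0.0774), where PMVK stood at 29.8 CPM against 12.5 to 17.3 CPM at the other E6 hours. Higher in BA than in E8 were SC5D, the sterol C5 desaturase (0.44, SE 0.13, edgeR adjusted p = 0.0158), and NPC1, which moves cholesterol out of lysosomes (0.32, SE 0.12, edgeR adjusted p = 0.0443). SC5D held 327, 390.3, 327 and 324 CPM in the first 4 BA hours and 284 CPM at 48 h, against 181 to 259.7 CPM over the E8 hours, and was above E8 at 7 of 8 hours. The SC5D call was lost without 12 h (adjusted p = 0.0502), 36 h (0.052) or 48 h (0.10), and the NPC1 call without 6, 12, 24, 30, 36 or 48 h (from 0.0803 to 0.186). NPC1 reached 170 CPM in BA at 48 h, above the highest replicate 1 or single library of E8 (116 CPM) and of E6 (128 CPM).

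FADS1, the delta-5 desaturase of polyunsaturated fatty acids, was the only gene of the 32 whose trend over hours in BA passed upward: it rose from 429.8 CPM at 6 h to 964 CPM at 48 h, by 0.48 per 24 h on the log2 scale (SE 0.12, edgeR adjusted p = 0.00541). The call was lost without the 48 h libraries (adjusted p = 0.264, slope 0.26). With the 2 downward trends of ABCA1 and ABCG1, 3 of 32 genes had a trend in BA against 20.6% of all tested genes. In E6 0 of 32 had a trend against 0.23% of all genes, and in E8 0 of 32 against 0.0%. At an unadjusted edgeR p under 0.05 there were 6 and 1 of the 32, against 1994 and 872 of all 16971 genes. DESeq2 called 0 and 0 of the 32, against 0.811 and 0.123% of all genes.

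**Figure D2:**
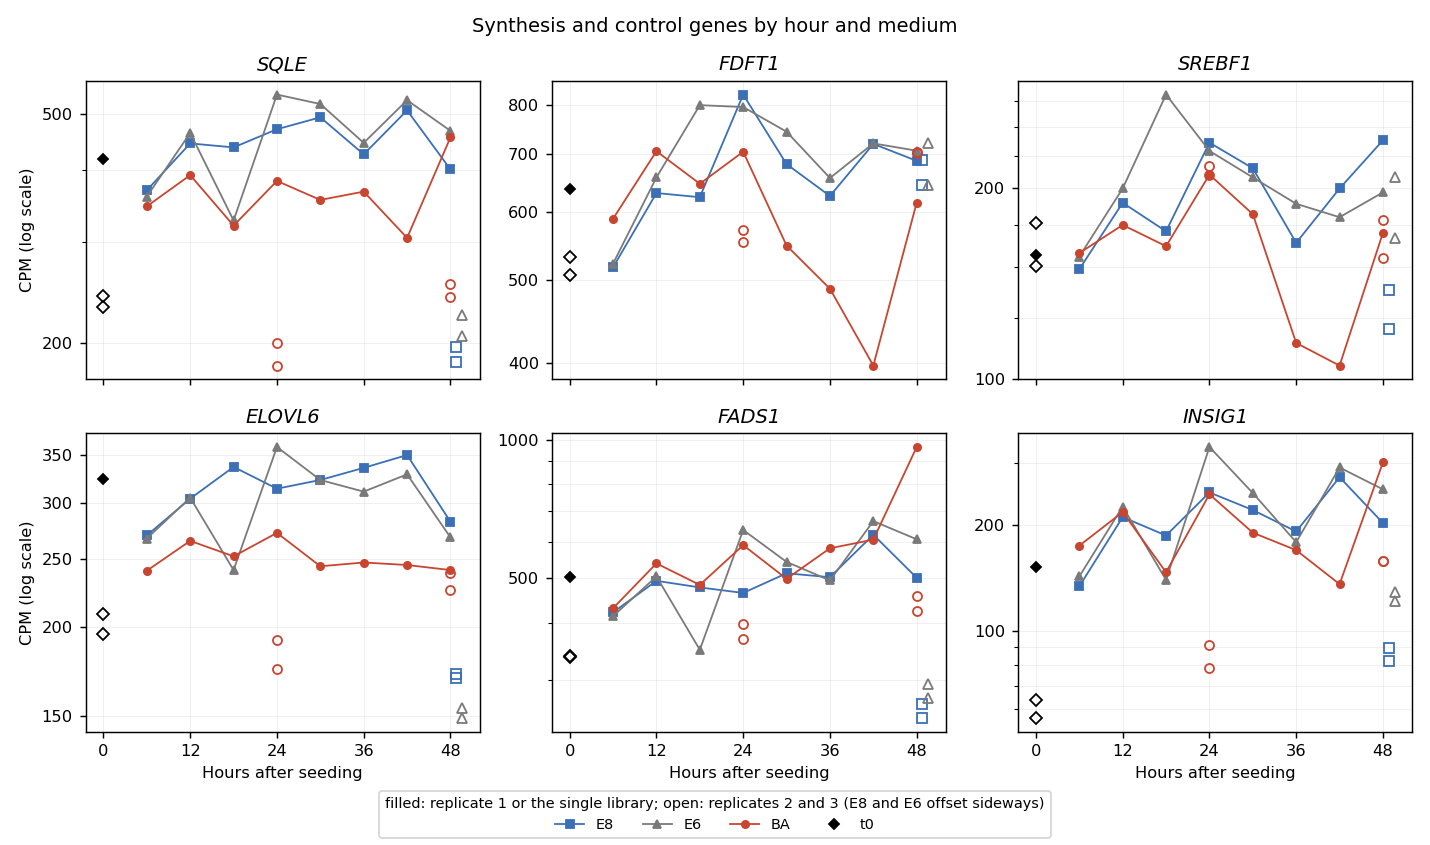
CPM on a log scale (vertical) against hours after seeding (horizontal) for SQLE, FDFT1, SREBF1, ELOVL6, FADS1 and INSIG1, with filled symbols for replicate 1 or the single library and open symbols for replicates 2 and 3. Among the filled symbols, SREBF1 in BA stood at 105 CPM at 42 h, FADS1 in BA reached 964 CPM at 48 h, and ELOVL6 in BA kept between 240.5 and 272 CPM. The open symbols of ELOVL6 in BA lay lower, at 175 and 192 CPM at 24 h and 226 and 239 CPM at 48 h.

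Many of the 32 genes stood above or below their own mean at the same hours. Each gene's deviation from its own mean over hours was taken within a medium, in the replicate 1 or single libraries, and not tested. At 6 h only 2 of 32 were above their own mean in E8 and 2 of 32 in E6 (10 in BA), whereas at 24 h the count was 24 in E8, 30 in E6 and 32 of 32 in BA. Over all tested genes, 49.4, 50.8 and 51.1% lay above their mean at 6 h in E8, E6 and BA, and 48, 50.4 and 50.9% at 24 h. At 42 h the media parted: 30 of 32 were above their mean in E8, 23 in E6 and 2 in BA, with medians of 0.18, 0.09 and -0.32 on the log2 scale. At 48 h in BA 24 of 32 were above it (median 0.27). Over all tested genes, 49.5, 48.6 and 47.4% lay above their mean at 42 h in E8, E6 and BA, and 46.8% at 48 h in BA. INSIG1, which restrains SREBP processing, held 136 CPM in BA at 42 h and 302 at 48 h, MSMO1, the sterol C4-methyl oxidase, held 248 and 341 CPM, and STARD4, a carrier of cholesterol between membranes, 128 and 222 CPM. Hours have 1 library each per medium here, so a library and its hour cannot be told apart.

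**Figure D3:**
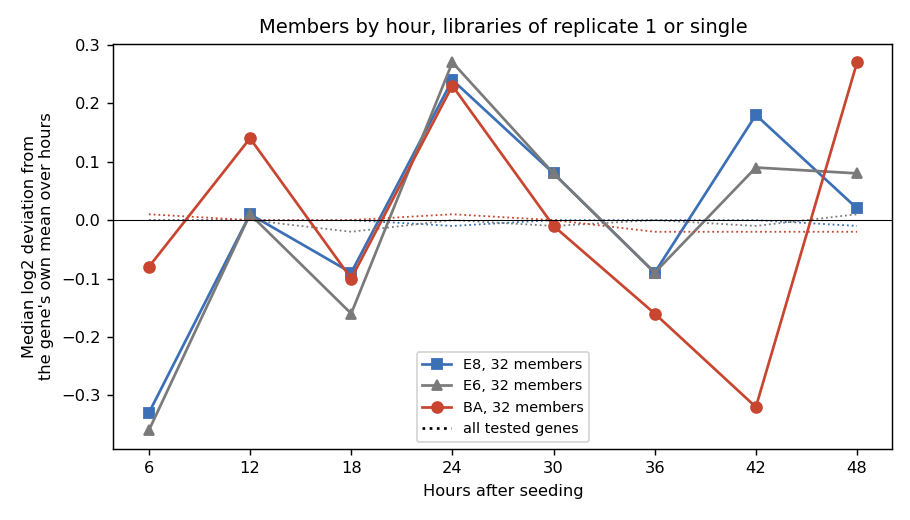
Median log2 deviation of the 32 genes from each gene's own mean over the 8 hours (vertical) against hours after seeding (horizontal), per medium, with dotted lines for all tested genes. The medians reached 0.24, 0.27 and 0.23 at 24 h in E8, E6 and BA, and -0.33, -0.36 and -0.08 at 6 h.

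At 48 h, with 3 libraries a group, the genes were more often higher than lower in BA against both controls: 25 of 32 differences lay above 0 against E6 and 29 of 32 against E8 with the replicate number as a block. Against E6 the library sets differed in this, with a median of 0.02 and 19 of 32 above 0 in replicate 1, and of 0.33 and 24 of 32 in replicates 2 and 3. Against E8 the medians were 0.23 (22 above 0) and 0.46 (29 above 0). Of all tested genes, 48 and 50.8% lay above 0 against E6 in these sets, and 48.2 and 50.2% against E8. The 32 differences come from the same libraries and are not separate observations. Without the block edgeR called 1 of the 32, NSDHL, higher in BA than in E6 (3.52% of all genes called) and in E8 (2.44%). With the block it called 12 higher and 4 lower than in E6, where 12.4% of all genes were higher and 9.72% lower (22.1% in all). Against E8 it called 15 higher and 1 lower, where 10.3% of all genes were higher and 7.31% lower (17.6% in all). All 3 BA libraries lay above all 3 of E6 for NSDHL, NPC1 and SCD, as for 8.31% of all genes, and below them for SCAP and ABCA1, as for 10.5%. They lay above all 3 of E8 for 4 genes (NSDHL, DHCR7, NPC1 and SCD; 7.6% of all genes) and below them for 0 (9.02%). The median of the 32 with the block was 0.29 and 0.40 on the log2 scale, where that of all genes was 0.04 and 0.03. NSDHL, the sterol C4 decarboxylase that acts after MSMO1, held 74, 61 and 59.9 CPM in BA at 48 h, 48.5, 46.7 and 44.4 in E6 and 44.9, 43.1 and 39.9 in E8. The BA libraries lay above all 6 others. The difference from E6 was 0.52 (SE 0.13, edgeR adjusted p = 0.0473 without the block, 0.00235 with it) and from E8 0.64 (SE 0.13, edgeR adjusted p = 0.0217 and 0.00082). Without the block the first call was lost with any 1 of the 6 libraries left out (adjusted p from 0.109 to 0.293), and also with the other size factors (0.0619), without the count filter (0.238) or in a fit of the 2 groups alone (0.438). The second was lost without E8 replicate 1, 2 or 3 or BA replicate 2 or 3 (adjusted p from 0.0637 to 0.153), without the count filter (0.12) and in a fit of the 2 groups alone (0.399).

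Of the 6 genes from mevalonate to farnesyl diphosphate, 2 passed higher than E6 and 3 higher than E8 with the block, and PMVK passed lower than E6. The shares of all genes were 12.4% higher than E6, 10.3% higher than E8 and 9.72% lower than E6. IDI1, the isopentenyl diphosphate isomerase, held 303, 121 and 122 CPM in BA against 225, 71.8 and 71 in E6 and 200.5, 70.4 and 68.9 in E8. Replicate by replicate BA was the highest, by 0.69 over E6 (SE 0.08, edgeR adjusted p = 0.000185) and 0.77 over E8 (SE 0.08, edgeR adjusted p = 0.000115) with the block, while the groups overlapped, with replicate 1 far above replicates 2 and 3 in each. Without the block the adjusted p were 0.801 and 0.785. MVK was higher by 0.36 than in E6 (edgeR adjusted p = 0.0376) and by 0.64 than in E8 (edgeR adjusted p = 0.00289), while MVD, the mevalonate diphosphate decarboxylase, and FDPS, the farnesyl diphosphate synthase, missed the threshold in both. HMGCS1 was higher by 0.61 than in E8 (SE 0.13, edgeR adjusted p = 0.00918) with the block, and the difference of 0.37 from E6 missed the threshold (adjusted p = 0.0665).

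Of the 11 genes from squalene to cholesterol, 5 passed higher than E6 and 8 higher than E8 with the block, and 0 passed lower. Of all genes, 12.4% passed higher than E6 and 10.3% higher than E8, and 9.72 and 7.31% passed lower. SC5D held 284, 79.4 and 85.7 CPM in BA, 266, 50.9 and 46.2 in E6 and 181, 46.1 and 45 in E8, which gave 0.57 over E6 (SE 0.12, edgeR adjusted p = 0.00557) and 0.83 over E8 (SE 0.12, edgeR adjusted p = 0.00087) with the block. Its difference from E6 was 0.10 in replicate 1 and 0.75 in replicates 2 and 3, and the interaction passed (adjusted p = 0.02). MSMO1 was higher by 0.51 and 0.66 (edgeR adjusted p = 0.0104 and 0.00343) and EBP, the sterol isomerase, by 0.30 and 0.41 (edgeR adjusted p = 0.0172 and 0.00465). CYP51A1, whose reads are uncertain, was higher by 0.52 and 0.72 (edgeR adjusted p = 0.0406 and 0.0114). LSS, which closes the sterol rings, and SQLE passed over E8 (0.54 and 0.34, edgeR adjusted p = 0.0118 and 0.0107), and TM7SF2 and HSD17B7, reductases of the late steps, passed in neither. DHCR7, the last enzyme of the Kandutsch-Russell branch, passed over E8 (0.57, edgeR adjusted p = 0.00648), where the BA libraries (395, 338 and 316 CPM) lay above the E8 libraries (312, 224 and 199 CPM).

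Of the 4 SREBP control genes, INSIG1 passed higher than E8 with the block (0.82, SE 0.13, edgeR adjusted p = 0.00187), with 302, 158 and 158 CPM in BA against 203, 89.7 and 82.1 in E8 and 253, 129.6 and 122 in E6. SCAP, the SREBP escort, was lower in BA at 120.1, 142 and 130 CPM than in E6 at 197, 167 and 164 CPM (-0.39, SE 0.11, edgeR adjusted p = 0.0285 with the block), and the groups did not overlap. SREBF1 and SREBF2, which encode the SREBPs, passed in neither comparison. For SREBF1 the difference from E8 was -0.49 in replicate 1 and 0.36 in replicates 2 and 3 (interaction adjusted p = 0.0254 in edgeR).

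Among the transport and supply genes, NPC1 held 170, 125 and 136 CPM in BA against 100.3, 81.4 and 71.2 in E6 and 98.7, 81.7 and 81.6 in E8, a difference of 0.80 over E6 (SE 0.13, edgeR adjusted p = 0.00138 with the block, 0.0903 without) and 0.74 over E8 (SE 0.13, edgeR adjusted p = 0.00273 and 0.135). The BA libraries lay above all others. ACAT2, the cytosolic acetoacetyl-CoA thiolase that supplies the sterol route, was higher by 0.67 and 0.69 (edgeR adjusted p = 0.00144 and 0.00164 with the block). ABCA1 was lower than E6 by the same fit (-0.67, SE 0.19, edgeR adjusted p = 0.0284), with 53.1, 63.9 and 75.6 CPM in BA, and against E8 the difference was 0.06 (adjusted p = 0.861).

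Among the fatty acid genes FADS1 passed against both media with the block: 964, 424 and 457 CPM in BA against 607, 294 and 274 in E6 and 500.5, 266 and 248 in E8, differences of 0.68 (SE 0.12, edgeR adjusted p = 0.00235) and 0.87 (SE 0.12, edgeR adjusted p = 0.000698). FADS2 (0.62, edgeR adjusted p = 0.00582) and ELOVL6 (0.41, edgeR adjusted p = 0.0409) passed over E6, and against E8 they missed the threshold (adjusted p = 0.0723 and 0.172). For both, the replicate sets differed: FADS2 was higher than E6 by 0.14 in replicate 1 and 0.80 in replicates 2 and 3, and ELOVL6 by -0.15 and 0.60, with interaction adjusted p of 0.0404 and 0.00267 in edgeR. FASN, ACACA, the acetyl-CoA carboxylase of the cytosol, and SCD passed against neither medium with the block, at differences of 0.31, 0.07 and 0.23 over E6.

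The BA libraries also differed from the controls in cell type markers. Over 6 to 48 h the summed level of 7 primitive streak genes was 49.6 to 2947 CPM in BA, 3.17 to 11.5 CPM in E8 and 3.72 to 14.8 CPM in E6. T, the streak factor brachyury, held 91.1, 26.8 and 23.2 CPM at 48 h of BA in replicates 1, 2 and 3, SOX17 of endoderm 179, 8.90 and 4.26 CPM, SOX2 3.60, 152 and 124 CPM and POU5F1 298, 2502 and 1561 CPM. At 48 h of BA replicate 1 thus held more of these streak and endoderm factors and less SOX2 and POU5F1 than replicates 2 and 3. POU5F1 was lower in replicate 1 in every replicated group, for example 457 against 1377 and 1036 CPM at t0. In E8 at 48 h it was 659 against 1865 and 1462 CPM. SOX2 was also lower in replicate 1 at 24 h of BA (69.4 against 184 and 175 CPM), but not at t0 (228 against 213 and 208 CPM) or in E6 and E8 at 48 h. The streak sum at 48 h of BA was 2025 CPM in replicate 1 and 177 and 181 CPM in the others, and the sum of 6 endoderm genes was 3342 CPM against 49.8 and 50.7 CPM. The 8 primed pluripotency genes summed to 2591 to 5351 CPM at 48 h of BA and 4179 to 4957 CPM in E8. Neuroectoderm genes (6) summed to 205 to 343 CPM in E6 at 48 h and 29.1 to 32.9 CPM in E8, and amnion and trophoblast genes (6) to 133 to 264 CPM in BA at 48 h and 1.84 to 5.07 CPM in E8. Early mesoderm genes (6) summed to 30.7, 37 and 522 CPM in BA at 48 h and 14 to 20.3 CPM in E8, and 5 blood genes to 0.363 to 6.55 CPM and 0.681 to 1.21 CPM. The 6 hepatocyte and yolk sac genes were near absent, with 5 of 6 under 1 CPM in every library of BA at 48 h, and the 6 fibroblast genes summed to 558 to 659.6 CPM in BA at 48 h, 353 to 531 in E6 and 580 to 690.4 in E8, with 2 of the 6, DCN and LUM, under 1 CPM in every group. The part of these markers in the differences above was not tested.

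**Figure D4:**
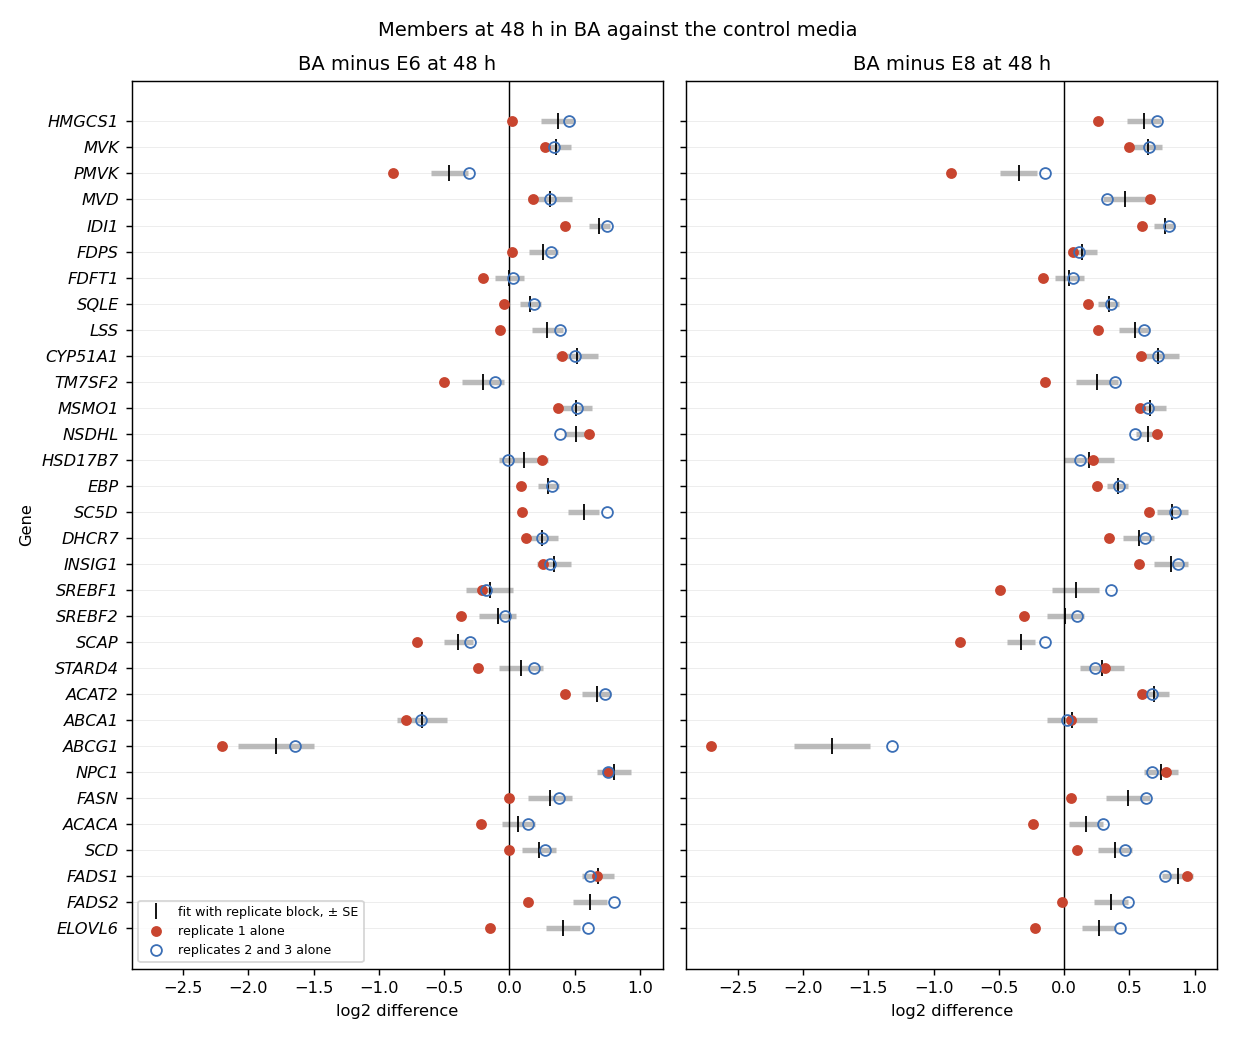
Log2 difference of BA at 48 h from E6 (left) and from E8 (right) for each of the 32 genes (vertical), with a bar and grey band for the block fit ± SE, filled points for replicate 1 alone and open points for replicates 2 and 3 alone. Most genes lie right of 0, ABCG1 lies farthest left, and for SC5D, FADS2 and ELOVL6 replicate 1 lies nearer 0 or left of it in the E6 panel.

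Compared with t0, edgeR without the block called 0 of 32 in BA at 48 h (6.37% of all genes; 8 of 32 at an unadjusted p under 0.05, DESeq2 2), 0 in E6 (3.88%; 2 and 1) and 0 in E8 (0.139%; 0 and 0). Of all 21554 genes, 4224 in BA, 4287 in E6 and 3226 in E8 had an unadjusted edgeR p under 0.05, and DESeq2 called 11.8, 11.5 and 6.3%. With the block edgeR called 16 higher and 2 lower in BA at 48 h, where 16.3% of all genes were higher and 12.3% lower (28.5% in all), 8 and 3 in E6 (35.0%) and 4 and 1 in E8 (25.6%). INSIG1 had the largest rise of the 32 in BA at 48 h, from 152, 63.5 and 56.6 CPM at t0 to 302, 158 and 158 CPM, 1.31 on the log2 scale (SE 0.13, edgeR adjusted p = 7.35e-05). It was higher in each of the 3 media, by 0.97 in E6 (edgeR adjusted p = 0.000519) and 0.49 in E8 (edgeR adjusted p = 0.0188). MSMO1 rose by 1.14 in BA (SE 0.12, edgeR adjusted p = 9.28e-05), 0.63 in E6 and 0.48 in E8, and STARD4 by 0.94, 0.85 and 0.65 (edgeR adjusted p from 0.00245 to 0.0193). The rise of STARD4 was 0.54 in replicate 1 and 1.12 in replicates 2 and 3 in BA (interaction adjusted p = 0.0315 in edgeR), and 0.23 and 0.89 in E8 (0.02). These differences share the t0 libraries and are listed side by side only.

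ACAT2 went the other way: from 418, 276 and 283 CPM at t0 it fell by 0.83 in E6 (SE 0.11, edgeR adjusted p = 0.00042) and fell by 0.85 in E8 (SE 0.11, edgeR adjusted p = 0.000991), and in BA at 24 h fell by 0.66 (SE 0.11, edgeR adjusted p = 0.00323), while BA at 48 h held 422, 221 and 228 CPM. ABCG1 rose by 1.44 in E6 and 1.43 in E8 (edgeR adjusted p = 0.00337 and 0.00598). FADS2 and ELOVL6 were lower in E6 (-0.40 and -0.36, edgeR adjusted p = 0.0324 and 0.0496). In BA at 48 h PMVK and SCAP were lower (-0.48 and -0.38, edgeR adjusted p = 0.0274 and 0.0238). These all come from the fit with the block, and none of them passed without it.

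From 24 to 48 h of BA, edgeR called 0 of 32 without the block (0.455% of all genes; 4 at an unadjusted p under 0.05, DESeq2 1, ABCA1) and 10 higher and 2 lower with it (10%). Without the block 2212 of all 21554 genes had an unadjusted edgeR p under 0.05, and DESeq2 called 3.23%. With the block STARD4 rose by 0.78 (SE 0.17, edgeR adjusted p = 0.0185), MSMO1 by 0.76 (SE 0.12, edgeR adjusted p = 0.00385), INSIG1 by 0.73 (SE 0.13, edgeR adjusted p = 0.00734) and NPC1 by 0.71 (SE 0.13, edgeR adjusted p = 0.00748), and ABCA1 fell by 1.11 (SE 0.20, edgeR adjusted p = 0.00678). The library sets parted in this comparison: the interaction passed for 13 genes (20.8% of all genes), with the signed difference higher in replicates 2 and 3 for 12 of them and lower for FADS1. ABCA1 is among the 12, and its fall was smaller in replicates 2 and 3 (-0.74) than in replicate 1 (-1.77). In replicate 1 the median difference of the 32 was -0.02 with 14 above 0, and in replicates 2 and 3 it was 0.38 with 25 above 0. Over all tested genes the median was -0.02 in both sets, with 46.8% above 0 in replicate 1 and 47.4% in replicates 2 and 3. SREBF2 differed by -0.44 in replicate 1 and 0.42 in replicates 2 and 3 (interaction adjusted p = 0.00344), and FASN by -0.30 and 0.76 (interaction adjusted p = 0.0112).

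Replicate 1 held other levels of the synthesis genes than replicates 2 and 3 in every group. Of the 32, 19 were higher in replicate 1 in all 5 groups and 3 were lower in all 5 (PMVK, EBP and ABCG1), where 27.8 and 32.6% of all tested genes were. STARD4 was 3.92-fold higher, SC5D 3.65, MSMO1 3.55, IDI1 2.88 and HMGCS1 2.58-fold higher, as medians over the groups. STARD4 held 38.9 and 34.1 CPM in replicates 2 and 3 at t0 against 152 CPM in replicate 1, and 72 and 81.7 CPM against 222 CPM at 48 h of BA. These libraries also differed in depth and mitochondrial share, as given above; their part in the levels was not tested.

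**Figure D5:**
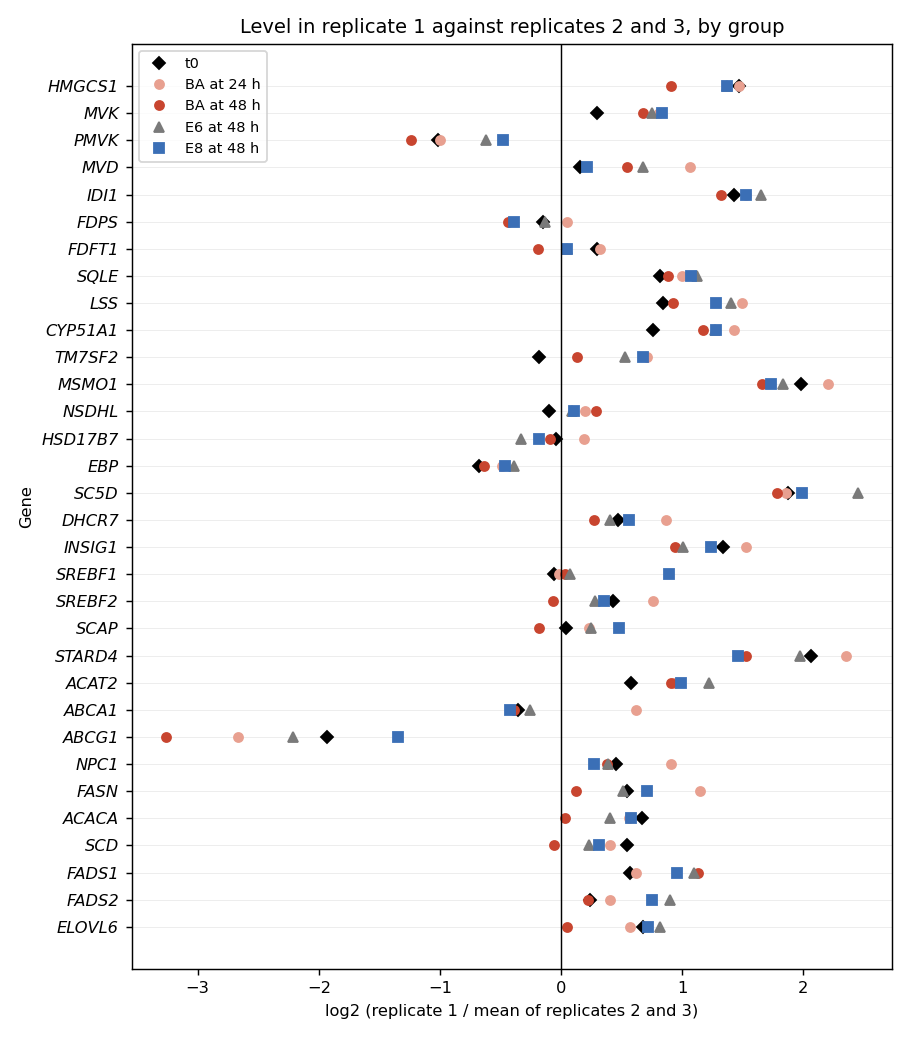
Log2 ratio of replicate 1 to the mean of replicates 2 and 3 (horizontal) for each of the 32 genes (vertical), with 1 point per group. STARD4, SC5D and MSMO1 lie farthest right, at median ratios of 3.92, 3.65 and 3.55-fold, and ABCG1 farthest left at 4.63-fold lower.

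Between E6 and E8, 0 of the 32 genes passed with all replicates in the fit. At 48 h edgeR called 0 of 32 without the block (0.144% of all genes; 1 at an unadjusted p under 0.05, DESeq2 0) and 0 with it (2.84%). Over the time course it called 0 of 32 in the average (0.0% of all genes; 1 and DESeq2 0) and 0 in the slope (0.0%; 0 and 0). Of all 21554 genes at 48 h, 1017 had an unadjusted edgeR p under 0.05, and DESeq2 called 1.06%. In the time course 343 of 16971 genes did so for the average and 569 for the slope, and DESeq2 called 0 and 0.0177%. The median difference E6 minus E8 at 48 h was 0.16 with 28 of 32 above 0, and the median over the time course was 0.07 with 28 of 32 above 0. At 48 h, 49% of all tested genes lay above 0 in replicate 1 and 49.1% in replicates 2 and 3. For the time course the median of all tested genes was -0.0043, and their share above 0 was not computed. ABCA1 was the only gene of the 32 whose E6 libraries (92.3, 102 and 118 CPM) all lay above its E8 libraries (51.3, 65.9 and 71.1 CPM), as 4.95% of all genes did, with a log2 difference of 0.73 (edgeR adjusted p = 0.493 without the block, 0.076 with it). With replicates 2 and 3 alone, a fit added after the data were seen, INSIG1, ABCA1, TM7SF2, DHCR7 and SREBF1 passed higher in E6 and FADS2 lower, against 18.4% of all genes.

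Related genes outside the 32 were read from 6 lists of 76 genes, and called ones are named, or where over 4 of a list were called, the largest in each direction. In the fit without the block, INSIG2, the paralogue of INSIG1, rose from 8.53 ± 1.63 CPM at t0 (SD, n = 3) to 38.9 ± 16.7 in E6 and 30.9 ± 10.9 in BA at 48 h, by 2.23 (SE 0.44, edgeR adjusted p = 0.0205) and 1.91 (SE 0.43, edgeR adjusted p = 0.0222). E8 at 48 h held the highest mean, 46.7 ± 15.2 CPM, and its difference from t0 of 2.48 missed the threshold in edgeR (adjusted p = 0.0542; 0.00104 with the block). PDSS1, which makes the tail of coenzyme Q, fell by 1.26 and fell by 1.14 in the same comparisons (edgeR adjusted p = 0.0136 and 0.00895). ELOVL1, the elongase of very long chains, was higher in BA at 48 h than in E6 by 1.2 and E8 by 1.52 (edgeR adjusted p = 0.00911 and 0.00316) at 44.4 ± 4.79 CPM against 19.8 ± 1.64 and 15.8 ± 1.6, and ACACB, the acetyl-CoA carboxylase of mitochondria, differed from E6 by -1.17 (edgeR adjusted p = 0.0247). CHKA, the choline kinase, was higher than in E8 by 0.81 (edgeR adjusted p = 0.0308). DGAT2, which makes triglycerides, rose over t0 by 2.76 in E6 and 1.80 in BA (edgeR adjusted p = 0.0124 and 0.0305). Over t0, BA at 48 h was also higher in AGPAT3 (1.35), ELOVL1 (0.92) and SCARB1 (0.63).

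In the time course, BA differed from E6 by -1.02 in MYLIP, a ubiquitin ligase under LXR control (SE 0.09, edgeR adjusted p = 1.15e-07), and by -1.30 in LIPA, the lysosomal acid lipase, and was higher in SOAT1, which esterifies cholesterol, by 0.63 and OSBPL5 by 0.46. AGPAT3 (1.51) and DGAT2 (0.98) of glycerolipid synthesis were higher, and LPIN1 (-0.85), CPT2 (-0.25) and HADHA (-0.23) were lower. In fatty acid supply 8 of 20 genes were called, a share near the 34.5% of all genes, of which ELOVL2 (1.13) and ELOVL1 (0.78) were the higher and ELOVL7 (-1.44) and ELOVL4 (-0.64) the lowest. MBTPS1 of SREBP processing was higher by 0.38, and of the isoprenoid branch PDSS2 was lower (-0.29). These fits used the replicate 1 or single libraries only. In replicates 2 and 3 at 48 h LIPA held 25.9 and 28.6 CPM in BA and 26.5 and 24.2 in E6. SOAT1 held 4.32 and 6.53 CPM in BA and 5.54 and 6.72 in E6. DGAT2 was lower in BA there (6.92 and 6.99 against 12.6 and 14.7 CPM). MYLIP, AGPAT3, LPIN1, ELOVL1, ELOVL2 and ELOVL7 kept the direction of the time course there.

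The authors' deposited table of comparisons lists log2 fold changes and adjusted p-values for the 24 and 48 h groups, without naming the reference in its header. In that deposited table ABCA1 was the only one of the 32 with an adjusted p under 0.05, in BA at 24 h (log2 1.18, adjusted p = 0.00103) and in E6 at 48 h (log2 0.79, adjusted p = 0.0192). The share of all genes passing there was not computed, so whether this is few or many of the 32 cannot be told.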

How the data were processed

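RNA was measured by polyadenylated RNA sequencing in 35 libraries of 25 groups. The authors deposited a table of raw read counts per gene with GENCODE 23 identifiers, and a table of log2 fold changes with p-values and adjusted p-values. Per the submitters' processing notes, featureCounts, DESeq2 and hg38 were used, and the aligner and versions are not given in the sources used here. The deposited log2 fold changes and p-values were used only where the authors' deposited table is named. Counts were analysed with edgeR 4.0.16 (quasi-likelihood test, TMM scaling, its expression filter, Benjamini-Hochberg adjustment over all genes tested, threshold 0.05) in R 4.3.3. Group comparisons used 15 libraries of the 5 replicated groups (21554 genes). The time course used 24 libraries (replicate 1 or the only library) with terms for hour, medium and the slope of the medium difference per 24 h (16971 genes). CPM are TMM-scaled over 35 libraries, and replicate 1 differences used a pseudocount of 0.5 CPM. Exon lengths are from GENCODE 29 and promoters from RefSeq. Alternatives were DESeq2 1.42.0, its size factors, no count filter, a fit of the 2 groups alone, the replicate block, a term for library set, and leaving out each library or hour. Fits of replicates 2 and 3 alone, of the interaction with library set and without the E6 library at 18 h were added after the data were seen.

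Deviations from the group means correlated at 0.587 to 0.883 in all 30 same-numbered pairs, from the data and not from the labels. Correlations between differently numbered libraries were not computed. The library sets stood apart in every group, and deviations can correlate from that gap alone. The values therefore cannot show that equal replicate numbers mark paired samples. Library depths of 11793453 to 37191969 counts limit the precision of low genes such as ABCG1. The edgeR group fit without the block and the average difference of the time course were tested on simulated data. No simulation is reported here for the other fits. The members and the lists were chosen with earlier results of these data known. Any of the 32 could be named. Other pathway genes are named where called, and where over 4 of a list were called, the largest in each direction; some called genes of these lists are not reported here. Of the markers, sums and T, SOX17, SOX2 and POU5F1 are named.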

Additional observations from a re-analysis of the deposited data

Results flagged for a closer look

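The slope over hours differed between media for ABCA1 and ABCG1, by a test of the interaction of medium with hour. For ABCA1 the slope in BA minus that in E6 was -1.84 per 24 h on the log2 scale. For ABCG1 it was -1.38 against E6 and -1.83 against E8. The values of both pumps at each hour are given in the report, with the hours and libraries whose removal or addition ended a call.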

How the results depend on the processing

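Over 1323 values of 102 gene results, 995 kept direction and side of the threshold, 64 no longer passed, 245 newly passed and 19 took another sign, and the cause was not tested. A gene result was taken only if called in the main fit, which has no block, or in the fit with the block. All other settings were set against the main fit. A result called only with the block thus counts there as newly passed by this choice, so 245 against 64 does not measure robustness. The number of the 32 genes called at 48 h of BA against E6 was 1, and it was 0 with DESeq2's size factors, without the filter or with the 2 groups alone, 2 with DESeq2, 16 with the replicate block, 16 with the library set term and 23 with replicates 2 and 3 only. Against E8 it was 1, and 0 without the filter or with the 2 groups alone, 16 with the block, 17 with the set term and 22 with replicates 2 and 3 only. Of all genes, the block, the set term and replicates 2 and 3 only called 22.1, 24 and 36.7% against E6. Against E8 they called 17.6, 19.9 and 33.1%. DESeq2 called 7.55% of all genes against E6. In the order block, set term, replicates 2 and 3 only, the counts were 5, 6 and 18 for E8 against t0, 11, 11 and 16 for E6 against t0 (DESeq2 1), 18, 20 and 22 for BA at 48 h against t0 (DESeq2 2), 5, 5 and 8 for BA at 24 h against t0 (0 with the 2 groups alone), and 12, 13 and 23 for BA at 48 h against 24 h (DESeq2 1). Of all genes, the same order gave 25.6, 27.7 and 51.3% for E8 and 35, 36.9 and 54.4% for E6 against t0. It gave 28.5, 30.4 and 46.7% for BA at 48 h and 8.95, 10.2 and 20.7% for BA at 24 h against t0. For BA at 48 h against 24 h it gave 10, 12.3 and 34.1%. For E6 against E8 replicates 2 and 3 gave 6, against 18.4% of all genes. For the slope of BA against E6 the 32 libraries with the set term gave 1, and for that against E8 they gave 0, DESeq2 2 and the fit without the E6 library at 18 h 4. Of all genes, the 32 libraries gave 3.14 and 2.73%, and DESeq2 gave 13% for the slope against E8. Leaving out 1 library or hour gave 0 to 0 calls for BA at 48 h against E6, 0 to 1 for BA against E8, for E6 against t0 and for BA at 24 h against t0, 4 to 9 for the average of BA against E8, 0 to 3 for its slope against E6 and 1 to 2 for its slope against E8. Leaving out 1 library turned the sign, with no call in either fit, for these log2 differences. For BA at 48 h against E6 the values ran MSMO1 from -0.27 to 1.30 and SC5D from -0.45 to 1.61 (-0.06 and -0.08 without E6 replicate 2 or 3). For BA at 48 h against E8 the values ran SQLE from -0.02 to 0.72, MSMO1 from -0.10 to 1.42 and SC5D from -0.06 to 1.70. For E8 against t0 the values ran MSMO1 from -0.43 to 1.41, INSIG1 from -0.07 to 1.09 and STARD4 from -0.21 to 1.53. For E6 against t0 the values ran MSMO1 from -0.32 to 1.58 and STARD4 from -0.17 to 1.88. For BA at 48 h against t0 the values ran SC5D from -0.40 to 1.34. For BA at 24 h against t0 the values ran IDI1 from -0.35 to 0.98, SC5D from -0.30 to 1.49 and INSIG1 from -0.05 to 1.22. For 48 h of BA against 24 h the values ran IDI1 from -0.15 to 1.07, MSMO1 from -0.15 to 1.68 and STARD4 from -0.14 to 1.72. The lowest were those without replicate 1 of the first-named group. Of 104 medians of the 32 genes, 79 moved by less than the spread and 25 by more. Low depth limits ABCG1, and each hour has 1 library per medium.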
